A study of Homo sapiens with 6 samples.

Results

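The nuclear pore and nuclear transport genes were 57 protein-coding genes, of 28491 genes in the count table and 16530 protein-coding genes among them. They were chosen by symbol: the nucleoporins (NUP genes, POM121, POM121C, NDC1, TPR, RANBP2, SEH1L, SEC13 and AAAS), the importins and importin alpha adaptors (KPNA, KPNB, IPO and TNPO genes), the exportins (XPO genes and CSE1L), RAN and RANGAP1, and the mRNA export receptor NXF1 with its partner NXT1. A mean count of at least 10 over all libraries was also required. Of 59 matching symbols, NUP210L with a mean count of 2.33 and KPNA7 with 7.67 fell below it, and the lowest members above it were KPNA5 with 334, NUP35 with 371 and NUP42 with 466. All 57 members passed the filter on low counts used for testing.

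Poly(A) RNA of HCT116 cells, an established human colorectal carcinoma line, was sequenced in 3 libraries from cells that received a control plasmid (NC) and 3 from cells that received a plasmid with the RBM47 transcript NM_019027 (RBM47-OE). RBM47 is an RNA-binding protein, and the comparison asked which transcripts changed when its level was raised. Cells were harvested 48 h after transient transfection with Lipofectamine, so each library pooled cells that did and did not take up the plasmid, and the controls shared the transfection. No source used here says that the 3 libraries of a group came from separate cultures. The p-values thus set the difference between the groups against the spread between these libraries, which may be technical.

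The nuclear pore complex is a ring-shaped assembly in the nuclear envelope, built from many copies of each nucleoporin. An outer ring, also called the Y complex, and an inner ring form the scaffold, transmembrane nucleoporins anchor it, nucleoporins rich in phenylalanine-glycine repeats fill the channel, and filaments extend from the cytoplasmic face and from the nuclear basket. Importins bind cargo in the cytoplasm and release it when they meet RAN loaded with GTP in the nucleus, exportins bind cargo together with RAN-GTP and release it when RANGAP1 triggers GTP hydrolysis in the cytoplasm, and bulk mRNA leaves through NXF1 and NXT1 without that cycle.

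RBM47 itself had 1.91, 2.33 and 1.94 FPKM (fragments per kilobase, scaled to the mapped fragments of a library) in NC and 131, 130 and 127 FPKM in RBM47-OE, a log2 fold change of 5.90 (SE 0.096, edgeR adjusted p = 1.7e-25). The libraries held 26792409 to 35477983 counts each, and the members took 0.655% to 0.74% of them, with 262 to 28095 counts for a member in a library. The epithelial markers EPCAM, CDH1, KRT8, KRT18 and KRT19 ranged from 12.9 to 1057 FPKM. EPCAM was higher in RBM47-OE (log2 fold change 0.26, edgeR adjusted p = 0.0070), KRT8 and KRT18 were lower (-0.27, 0.0118 and -0.36, 0.00114), and CDH1 and KRT19 were not called. Of the markers of blood, endothelial and fibroblast cells reported here, 4 were at 0 or not in the count table, CD3E, PECAM1 and CDH5 had 8 counts or fewer in every library, and the highest, COL1A1, had 378 to 537 counts and was not called. CD68, with 7 to 30 counts, was lower (-1.10, adjusted p = 0.0326). The part of these shifts in the members' changes was not tested. RBM47-OE 1 stood apart from the other RBM47-OE libraries in the members: it lay nearest the NC mean in 36 of the 41 members that passed the test below, against 5 for RBM47-OE 3 and 0 for RBM47-OE 2, although its RBM47 level was as high as theirs. The same count was not made over all genes, so whether this is particular to the members is not known. The median standard deviation of the members' log2 CPM (counts scaled to library size with TMM factors) was 0.046 between NC libraries and 0.134 between RBM47-OE libraries. The edgeR test used below estimates a common spread per gene for both groups.

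The members moved in both directions, by small amounts. In RBM47-OE, 24 of 57 members (42.1%) were called higher and 17 (29.8%) lower, and 16 were not called. A call means a Benjamini-Hochberg adjusted p below 0.05, over all tested genes, from the quasi-likelihood test of edgeR. Over all 16260 genes tested, 19.1% were called higher and 16.9% lower. The tested genes include some with far fewer counts than any member, in which small changes are harder to call. By mean NC FPKM, 55 of the 57 members lay above 50% of protein-coding genes, so these shares compare genes at unlike depth. The log2 fold changes of the members ran from -0.51 to 0.47 with a median of 0.14, where the median over all tested genes was 0.0, and 32 members changed by less than 0.3. None reached the study's thresholds (raw p below 0.01 with a fold beyond 1.5) by edgeR or by DESeq2, which 1.51% of all tested genes reached upwards and 0.873% downwards. The RBM47-OE libraries all lay above the NC libraries in 25 members and all below them in 19, against 23.2% and 23.4% of all tested genes, and this held for 22 of the 24 members called higher and for 17 of the 17 called lower.

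The call counts changed when 1 library was left out. Such a fit has fewer libraries, so a call near the threshold can be lost without a smaller change. With all libraries XPO1 had a log2 fold change of 0.23. It lost its call at 0.24 without NC 1 and at 0.12 without RBM47-OE 3. The number called higher was 15 without NC 2, 15 without NC 3 and 14 without RBM47-OE 3, and 26 without RBM47-OE 1. The number called lower stayed between 12 and 19 in these fits. Of the members called higher 13 kept the call whichever library was left out, and 11 lost it in at least 1 fit: KPNB1, XPO1, IPO11, KPNA3, KPNA5, NUP42, NUP88, NUP155, NUP160, NUP205 and NDC1. Of those called lower 12 kept it and 5 lost it: NUP98, SEC13, POM121, POM121C and AAAS. The values without those libraries are given with each gene. Without RBM47-OE 1, CSE1L reached the study's thresholds with a log2 fold change of 0.61. With an offset for exonic length the split turned from 24 higher and 17 lower to 13 higher and 20 lower. Shares over all tested genes were not counted for the length offset or for the fits that left out a library. In bulk RNA, fewer cells of a kind and less RNA per cell cannot be told apart.

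**Figure D1:**
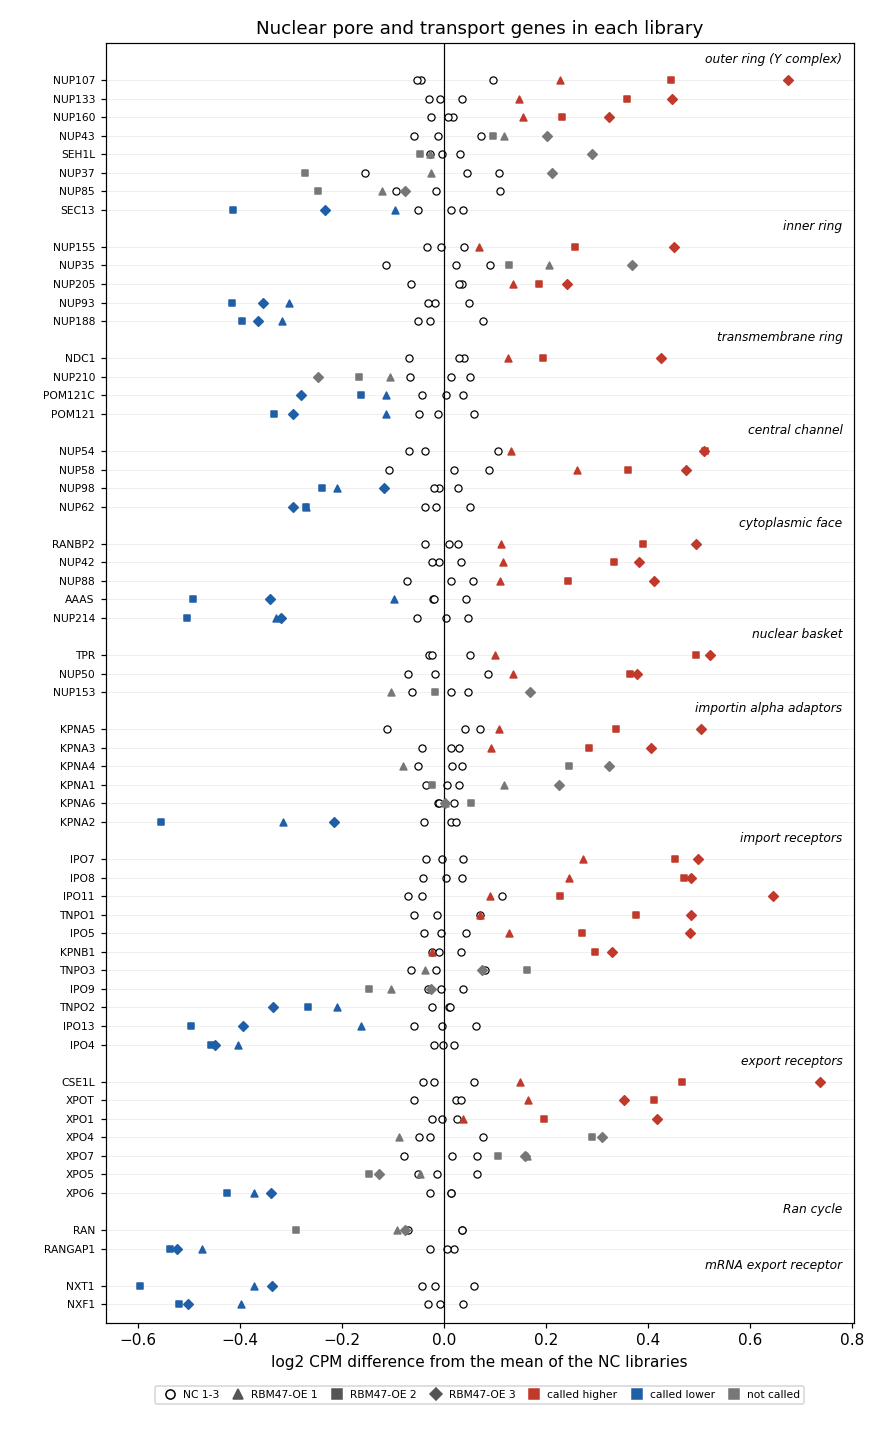
Log2 CPM of each member in each library, as the difference from the mean of the NC libraries, grouped by role. Open circles are NC libraries, filled markers are RBM47-OE libraries 1 (triangle), 2 (square) and 3 (diamond), red for members called higher (24), blue for lower (17) and grey for not called (16). Among the members called higher, the triangle of RBM47-OE 1 sits nearest the open circles.

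Promoter sequences of 52 members were matched by gene symbol in RefSeq (GRCh38.p14, 66 promoters of 300 bases each, from 250 before to 50 after a start), and 6 short motifs were searched on both strands. The letters CCGGAAGT, a strong binding site of the ETS family, were present in 11 of the 66 (16.7%), against 4.1% of all 35116 promoters in the table, which covers genes of every kind. The median GC content was 63.5% in the members' promoters and 58.67% in all, and the shares were not adjusted for it. Promoters were counted singly, and 13 members had more than 1. They were present in 3 of 27 promoters of members called higher, in 6 of 25 of those called lower and in 2 of 14 of the others, so the motif occurred among members of both directions. The GC box GGGCGG was found in 56.1% of the members' promoters and 45.0% of all, the E-box CACGTG in 12.1% and 7.3%, CCAAT in 39.4% and 34.6%, the YY1 site AAGATGGCG in 7.6% and 1.7%, and TATAAA in 7.6% and 11.5%. KPNA4, KPNA5, KPNB1, XPO7 and NUP43 were not matched. Stretches of 38 bases around the ETS letters are shown for 3 members called higher and 4 called lower, each 5′ to 3′ on the strand of the gene, with the motif in capitals (ACTTCCGG is the same motif on the other strand).
NUP54, higher, chr4:76148546-76148583, minus strand: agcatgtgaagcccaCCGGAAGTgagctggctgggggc
NUP58, higher, chr13:25301543-25301580, plus strand: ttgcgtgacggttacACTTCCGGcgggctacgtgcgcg
NUP160, higher, chr11:47848362-47848399, minus strand: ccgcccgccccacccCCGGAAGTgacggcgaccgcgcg
IPO4, lower, chr14:24188846-24188883, minus strand: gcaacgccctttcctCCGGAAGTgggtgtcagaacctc
SEC13, lower, chr3:10321103-10321140, minus strand: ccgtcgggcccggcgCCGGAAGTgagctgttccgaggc
POM121, lower, chr7:72879258-72879295, plus strand: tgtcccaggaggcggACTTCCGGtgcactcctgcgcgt
POM121C, lower, chr7:75486347-75486384, minus strand: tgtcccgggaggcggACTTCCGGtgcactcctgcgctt
The windows of the paralogs POM121 and POM121C differed at 2 of 38 positions. A match describes the letters in the window and is not evidence of a bound site.

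The outer ring held 8 members, of which 3 were called higher, 1 lower and 4 neither. NUP107 (ENSG00000111581, chr12:68686951-68745809, plus strand, GRCh38), a stem protein of the Y complex, had 63.0, 57.2 and 56.9 CPM in NC and 69.1, 80.3 and 94.2 in RBM47-OE. The groups did not overlap, RBM47-OE 1 was nearest to NC and RBM47-OE 3 farthest, and the log2 fold change was 0.46 (SE 0.089, edgeR adjusted p = 0.000376). NUP133, its neighbour in the stem, rose by 0.32 and NUP160, in an arm of the Y, by 0.24, with adjusted p-values of 0.00276 and 0.0109, and the call of NUP160 was lost without NC 1 (0.0669) or NC 2 (0.0525). SEC13, which also coats vesicles leaving the endoplasmic reticulum, fell by 0.24 (adjusted p = 0.0158), a call lost without NC 2 (0.0896), NC 3 (0.0665) or RBM47-OE 2 (0.111). NUP43, SEH1L, NUP37 and NUP85 were not called, with log2 fold changes of 0.14, 0.08, -0.02 and -0.15. The FPKM ratio of NUP107 to NUP85, its partner in the same complex, was 0.306 to 0.389 in NC and 0.434 to 0.573 in RBM47-OE, with no overlap. With the GC offset described below, neither was called, at 0.14 for NUP107 (edgeR adjusted p = 0.149) and -0.04 for NUP85 (0.697).

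In the inner ring, NUP155 and NUP205 were called higher, NUP93 and NUP188 lower, and NUP35 (log2 fold change 0.24, adjusted p = 0.105) neither. NUP93 (ENSG00000102900, chr16:56730118-56850286, plus strand), the linker that holds the ring to the channel, had 146.7, 153.7 and 145.4 CPM in NC and 120.5, 111.4 and 116.2 in RBM47-OE. All RBM47-OE libraries lay below all NC libraries, with a log2 fold change of -0.36 (SE 0.069, edgeR adjusted p = 0.000386). NUP188 (ENSG00000095319, chr9:128947699-129007096, plus strand), one of a pair of large related scaffold proteins, had 204.0, 189.9 and 186.8 CPM in NC and 155.2, 147.0 and 150.3 in RBM47-OE. It also fell without overlap, by 0.36 on the log2 scale (SE 0.069, adjusted p = 0.000375). Its relative NUP205 went the other way by 0.19 (adjusted p = 0.0370), and NUP155, which contacts the membrane, by 0.27 (adjusted p = 0.0115). Both of these rises lost their calls in some fits that left out 1 library. NUP205 lost its call without any library but RBM47-OE 1, at log2 fold changes of 0.16 to 0.20 with adjusted p-values of 0.0652 to 0.205. NUP155 lost its call without NC 2 (0.26, adjusted p = 0.0560), NC 3 (0.25, 0.0621) or RBM47-OE 3 (0.17, 0.104). The falls of NUP93 and NUP188 kept their calls in all 6 fits. With the GC offset described below, NUP205 (0.03, edgeR adjusted p = 0.772) and NUP155 (0.004, 0.973) were not called. NUP93 (-0.41, 8.31e-05) and NUP188 (-0.25, 0.00448) were still called lower with it.

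Of the 4 transmembrane members, NDC1 was called higher (log2 fold change 0.25, adjusted p = 0.0135), POM121 lower (-0.24, 0.0132) and POM121C lower (-0.18, 0.0450). NUP210 was not called (-0.17, 0.0569), although its RBM47-OE libraries all lay below its NC libraries. NDC1 lost its call without NC 2 (0.101) or RBM47-OE 3 (log2 fold change 0.16, adjusted p = 0.111), POM121 without NC 3 (0.0910) or RBM47-OE 2 (0.0710), and POM121C without any library but RBM47-OE 1 (0.0674 to 0.181). POM121 and POM121C are near-identical copies: 31.1% of the 100-base stretches of the canonical POM121 transcript were also in POM121C transcripts and 31.8% the other way round, so how their reads were divided is uncertain.

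The central channel members are rich in phenylalanine-glycine repeats or hold those that are. NUP54 and NUP58 were called higher and NUP62 and NUP98 lower, although NUP54, NUP58 and NUP62 are partners in a single subcomplex. NUP54 (ENSG00000138750, chr4:76107562-76148485, minus strand) had 31.6, 28.6 and 28.0 CPM in NC and 32.2, 41.8 and 41.8 in RBM47-OE. RBM47-OE 1 lay just above the highest NC library and the other two far above it, and the log2 fold change was 0.39 (SE 0.097, edgeR adjusted p = 0.0026). NUP58 (ENSG00000139496, chr13:25301524-25365390, plus strand) had 158.7, 138.5 and 151.4 CPM in NC and 178.9, 191.8 and 207.6 in RBM47-OE. It rose without overlap by 0.37 (SE 0.075, adjusted p = 0.000616). NUP62 (ENSG00000213024, chr19:49906825-49929764, minus strand) had 94.3, 98.8 and 93.0 CPM in NC and 79.0, 79.0 and 77.7 in RBM47-OE. Its RBM47-OE libraries were close to each other and all below NC, with a log2 fold change of -0.28 (SE 0.069, adjusted p = 0.00285). The FPKM ratio of NUP58 to NUP62 was accordingly 0.812 to 0.975 in NC and 1.31 to 1.55 in RBM47-OE. With the GC offset described below, neither was called, at 0.01 for NUP58 (edgeR adjusted p = 0.939) and -0.10 for NUP62 (0.235).

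NUP98 (ENSG00000110713, chr11:3671083-3797792, minus strand), whose precursor also yields the Y complex protein NUP96, had 152.5, 148.7 and 147.7 CPM in NC and 129.3, 126.7 and 137.8 in RBM47-OE. The groups did not overlap, but the fall of 0.19 on the log2 scale (SE 0.069, edgeR adjusted p = 0.0339) lost its call without NC 1, NC 2, NC 3 or RBM47-OE 2, with adjusted p-values of 0.0950 to 0.148. The exons of NUP62 overlap those of ATF5 on the opposite strand over 565 bases and those of NUP54 overlap ART3 over 1814. The labels and the study's methods both describe a library kit that marks strand, but whether strand was used in counting is not given in the sources used here, so whether reads of these partners were told apart is not known. ATF5 itself fell by 0.68 (adjusted p = 4.49e-05).

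All 5 members of the cytoplasmic face were called: RANBP2, NUP42 and NUP88 higher, NUP214 and AAAS lower. RANBP2 (ENSG00000153201, chr2:108719482-108785810, plus strand), the main filament protein, which binds RAN and anchors RANGAP1, had 90.8, 91.8 and 87.8 CPM in NC and 97.3, 118.2 and 126.9 in RBM47-OE. All RBM47-OE libraries were above NC, RBM47-OE 1 by the least, and the log2 fold change was 0.34 (SE 0.082, edgeR adjusted p = 0.00219). NUP214 (ENSG00000126883, chr9:131125573-131234663, plus strand), a platform for mRNA export at the same face, had 41.1, 42.8 and 44.01 CPM in NC and 33.9, 30.1 and 34.1 in RBM47-OE. It fell without overlap by 0.38 (SE 0.082, adjusted p = 0.000947), while NUP88, its binding partner, rose by 0.26 (adjusted p = 0.0135). With the GC offset described below, NUP214 was called lower at -0.52 (edgeR adjusted p = 8.31e-05) and NUP88 was not called, at 0.08 (0.432). NUP42 rose by 0.28 (adjusted p = 0.0363) and AAAS fell by 0.30 (adjusted p = 0.00686). NUP88 lost its call without NC 3 (0.0940) or RBM47-OE 3 (0.0944), NUP42 without any library but RBM47-OE 1 (0.0810 to 0.128), and AAAS without RBM47-OE 2 (0.0686).

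Some members share exact sequence with other genes. Where the sharing gene is a copy elsewhere in the genome, reads may have been dropped as not uniquely aligned. Where it overlaps the member at the same place in the genome, the reads can align uniquely, and the gene they were counted for is uncertain. Neither was tested. RANBP2 shared 14.6% of its 100-base stretches with other genes' transcripts, mainly of the RGPD family that arose from it, with RGPD3 sharing the most (9.93%). RGPD3, with 8 to 19 counts in a library, was not called (log2 fold change -0.29, adjusted p = 0.613), and neither was RGPD6 (1.10, 0.0588). RGPD5 and RGPD8 were called higher, by 0.79 and 0.57, from 28 to 74 and 91 to 177 counts in a library, and both calls were lost with the GC offset described below (adjusted p = 0.216 and 0.225). NUP88 shared 38.1%, through exons overlapping RABEP1 on the opposite strand. Over all members, 32 shared under 1% and 8 shared over 10%.

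The nuclear basket had 3 members. TPR (ENSG00000047410, chr1:186311652-186375693, minus strand), the basket filament, had 120.8, 114.2 and 114.6 CPM in NC and 124.9, 164.0 and 167.3 in RBM47-OE. RBM47-OE 1 was just above the NC libraries and RBM47-OE 2 and 3 well above, with a log2 fold change of 0.38 (SE 0.086, edgeR adjusted p = 0.00133). NUP50, a mobile basket protein that helps release importin cargo, rose by 0.30 (adjusted p = 0.0042). NUP153, which joins the basket to the ring, was not called, with a log2 fold change of 0.02 (adjusted p = 0.873).

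Among the importin alpha adaptors, which bind the classical nuclear localization signal and hand cargo to KPNB1, the most abundant of the 6 members was called lower, 2 were called higher and 3 neither. KPNA2 (ENSG00000182481, chr17:68035636-68047364, plus strand) had 449.4, 452.3 and 433.5 CPM in NC and 357.6, 302.9 and 383.0 in RBM47-OE. The groups did not overlap, RBM47-OE 2 was the lowest, and the log2 fold change was -0.36 (SE 0.079, edgeR adjusted p = 0.00117). KPNA3 rose by 0.27 and KPNA5 by 0.33, with adjusted p-values of 0.00992 and 0.0370, but KPNA3 lost its call without NC 3 (0.0627) or RBM47-OE 3 (0.0680), KPNA5 without any library but RBM47-OE 1 (0.0608 to 0.189), and with an offset for GC content both were below 0 (-0.06 and -0.04) and not called. KPNA1, KPNA4 and KPNA6 were not called, at 0.11, 0.17 and 0.02. On the FPKM scale, which allows levels of genes to be compared, the 6 genes summed to 91.2 to 93.8 in NC and 86.0 to 96.5 in RBM47-OE, which overlap. KPNA2 made up 55.7% to 56.5% of that sum in NC and 44.1% to 49.95% in RBM47-OE, and KPNA3 14.5% to 14.9% and 17.3% to 20.6%.

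**Figure D2:**
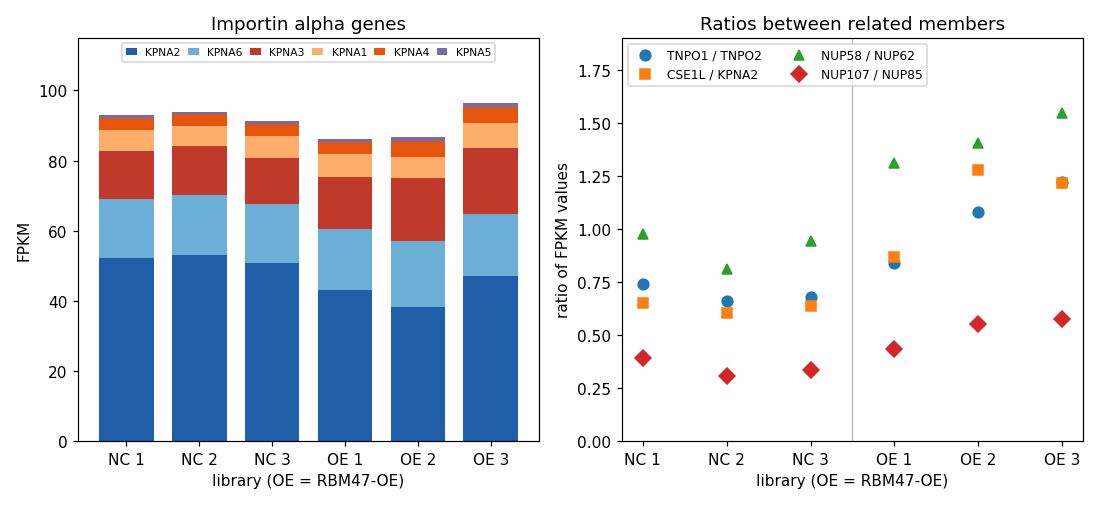
Left, FPKM of the 6 importin alpha genes stacked for each library (OE stands for RBM47-OE), with the bars starting at 0. Right, FPKM ratios of 4 pairs of related members in each library, in which every RBM47-OE library lies above every NC library of the same pair. Each pair sets a member called higher over one called lower or, for NUP85, not called. The separation of the ratios therefore follows from the choice of pairs and is no further result. The dark blue KPNA2 segment is 50.8 to 53.1 FPKM in NC and 38.2 to 47.0 in RBM47-OE.

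Of the 11 import receptors, 6 were called higher, 3 lower and 2 (TNPO3 and IPO9) neither. KPNB1 (ENSG00000108424, chr17:47649476-47685505, plus strand), the main receptor of classical import, had 372.5, 357.8 and 361.2 CPM in NC and 358.1, 446.9 and 457.0 in RBM47-OE. RBM47-OE 1 lay within the NC range, so the groups overlapped, and the rise of 0.21 (SE 0.081, edgeR adjusted p = 0.0447) kept its call only without RBM47-OE 1 among the fits that left out a library, with adjusted p-values of 0.0958 to 0.204 in the others. IPO7 (ENSG00000205339, chr11:9384652-9448127, plus strand), which carries ribosomal proteins and other cargo, had 234.9, 229.6 and 241.7 CPM in NC and 284.5, 322.1 and 332.4 in RBM47-OE. It rose without overlap by 0.41 (SE 0.073, adjusted p = 0.000191). IPO8 (ENSG00000133704, chr12:30628988-30695869, minus strand), its closest relative, had 53.9, 51.1 and 52.7 CPM in NC and 62.4, 72.9 and 73.6 in RBM47-OE. It rose by 0.40 (SE 0.078, adjusted p = 0.000369), also without overlap. TNPO1 and IPO5 rose by 0.32 (adjusted p = 0.00431) and 0.30 (0.00439). IPO11 rose by 0.34 (adjusted p = 0.0168), but its groups overlapped and its call was lost without NC 2 (0.0830), NC 3 (0.0665) or RBM47-OE 3, where the log2 fold change was 0.16 (adjusted p = 0.214).

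IPO4 (ENSG00000196497, chr14:24180219-24188869, minus strand), an importin for histones, moved the other way, with 103.6, 102.0 and 100.8 CPM in NC and 77.2, 74.4 and 74.8 in RBM47-OE. The groups were tight and far apart, with a log2 fold change of -0.44 (SE 0.069, edgeR adjusted p = 7.08e-05). Of its 100-base stretches 94.8% were also in other transcripts, chiefly those of a readthrough gene on the same strand, so how its reads were assigned is uncertain. IPO13 fell by 0.35 (adjusted p = 0.0045). The FPKM ratio of IPO7 to IPO4 was 1.53 to 1.63 in NC and 2.51 to 3.02 in RBM47-OE. These were the import receptors with the largest rise and the largest fall, so this separation follows from the choice of pair and is no further result. With the GC offset IPO7 was at 0.07 (edgeR adjusted p = 0.466) and not called, while IPO4 was still called lower at -0.24 (0.00537). TNPO1 and TNPO2 are paralogs that import RNA-binding proteins, and they moved in opposite directions, TNPO2 falling by 0.27 (adjusted p = 0.00406). With the GC offset neither was called, at -0.03 for TNPO1 (adjusted p = 0.817) and -0.08 for TNPO2 (0.357). Their FPKM ratio, TNPO1 over TNPO2, was 0.659 to 0.738 in NC and 0.839 to 1.22 in RBM47-OE.

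The 7 export receptors gave 3 called higher, 1 lower and 3 neither. CSE1L (ENSG00000124207, chr20:49046246-49096960, plus strand), which returns importin alpha to the cytoplasm, had 150.5, 140.3 and 142.5 CPM in NC and 160.2, 199.4 and 240.6 in RBM47-OE. No RBM47-OE library overlapped NC, and they were spread widely, from RBM47-OE 1 just above NC to RBM47-OE 3. The log2 fold change of 0.47 (SE 0.095, edgeR adjusted p = 0.000585) was 0.32 without RBM47-OE 3. The ratio of CSE1L to KPNA2, the most abundant importin alpha, was 0.601 to 0.649 in NC and 0.868 to 1.28 in RBM47-OE on the FPKM scale.

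XPO1 (ENSG00000082898, chr2:61476032-61538741, minus strand), the receptor for leucine-rich export signals, had 208.8, 201.7 and 204.6 CPM in NC and 210.3, 234.9 and 273.9 in RBM47-OE. RBM47-OE 1 was barely above the highest NC library, and the rise of 0.23 (SE 0.080, edgeR adjusted p = 0.0295) kept its call only without RBM47-OE 1 among the fits that left out a library, with adjusted p-values of 0.0516 to 0.241 in the others. XPOT, the tRNA exporter, rose by 0.31 (adjusted p = 0.00208). XPO6 (ENSG00000169180, chr16:28097976-28211965, minus strand), which keeps actin out of the nucleus, had 180.5, 180.5 and 175.5 CPM in NC and 138.2, 133.3 and 141.4 in RBM47-OE. It fell without overlap by 0.38 (SE 0.068, adjusted p = 0.000213). XPO4, XPO7 and XPO5, the exporter of microRNA precursors, were not called, with log2 fold changes of 0.18, 0.14 and -0.11.

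RAN was the most abundant member, and RANGAP1, which triggers GTP hydrolysis by RAN, had the largest fall of all members. RANGAP1 (ENSG00000100401, chr22:41244779-41286187, minus strand) had 230.8, 228.8 and 223.4 CPM in NC and 163.9, 156.9 and 158.4 in RBM47-OE. The log2 fold change was -0.51 (SE 0.068, edgeR adjusted p = 2.31e-05), with little spread within either group. RAN (ENSG00000132341, chr12:130872037-130877678, plus strand) had 812.2, 812.7 and 755.5 CPM in NC and 743.9, 649.2 and 752.2 in RBM47-OE. Its groups lay side by side without overlap in CPM, but with a log2 fold change of -0.15 (SE 0.076) the adjusted p was 0.126. The FPKM ratio of RAN to RANGAP1 was 4.43 to 4.66 in NC and 5.42 to 6.22 in RBM47-OE. RANGAP1 was called lower and RAN was not called, so the shift of this ratio restates the fall of RANGAP1 and is no further result.

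Both subunits of the mRNA export receptor fell. NXF1 (ENSG00000162231, chr11:62792123-62806302, minus strand) had 44.9, 46.3 and 44.1 CPM in NC and 34.2, 31.5 and 31.8 in RBM47-OE, and NXT1 (ENSG00000132661, chr20:23350791-23354771, plus strand) had 20.7, 22.2 and 21.1 in NC and 16.5, 14.1 and 16.9 in RBM47-OE. Neither gene had overlapping groups. The log2 fold changes were -0.47 (SE 0.080, edgeR adjusted p = 0.000127) and -0.43 (SE 0.099, adjusted p = 0.00155).

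The direction of change followed the base composition of the transcripts. All 24 members called higher had an exonic GC content of 35.0% to 45.5% (median 40.3%), and the 17 called lower had 42.5% to 59.2% (median 53.7%). Their 3′ UTRs also differed, with a median length of 2303 bases and a GC content of 35.3% in the members called higher against 562 bases and 49.3% in those called lower. The median GC content of the coding sequence was 42.1% against 56.5%. UTR and coding values were not computed over all tested genes, so whether these differences are particular to the members is not known. Across the 57 members, log2 fold change and exonic GC content had a Spearman rho of -0.82, and across 16233 tested genes -0.64, as a description over genes that share the same 6 libraries. Of the members, 42 lay below the median GC content of all tested genes (49.0%), and of these 24 were called higher and 4 lower. The other 15 gave 0 higher and 13 lower. Over all tested genes the same split gave 37.0% higher and 3.5% lower below the median, and 1.2% higher and 30.2% lower at or above it.

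**Figure D3:**
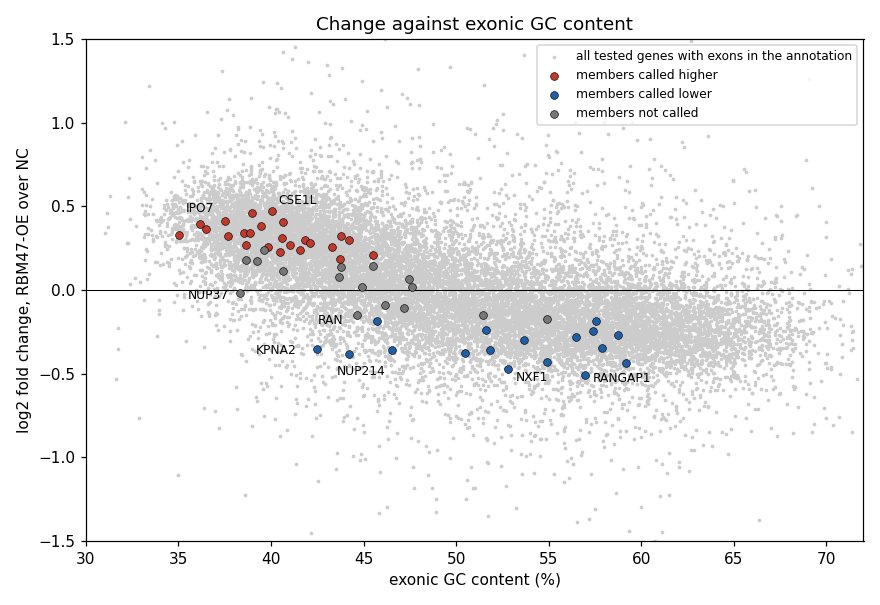
Log2 fold change (RBM47-OE over NC) against exonic GC content in percent, for all tested genes (grey) and for the members called higher (red), lower (blue) or not called (dark grey). The axes leave out 26 genes beyond 1.5 in log2 fold change and 30 outside 30% to 72% GC. Members called higher lie at 35.0% to 45.5% GC, and KPNA2 and NUP214 are called lower at 42.5% and 44.2%.

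With a loess offset for exonic GC content in each library, 0 members were called higher and 12 lower, against 6.01% and 8.46% of all tested genes. The median log2 fold change of the members was then -0.045, and 5 members had an unadjusted p-value under 0.05 and a rise. The 24 members called higher without the offset ran from -0.06 to 0.18 with it, 6 of them below 0 (KPNA3, KPNA5, NDC1, NUP160, TNPO1 and XPO1), and CSE1L went from 0.47 to 0.18 (edgeR with the offset, adjusted p = 0.104). The offset takes out change that goes with GC content over all genes, whatever its source, but in the members a Spearman rho of -0.38 with exonic GC content remained. What the GC trend came from was not tested.

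Of the 17 members called lower, 10 were also called lower with the offset. KPNA2 went from -0.36 to -0.56 (adjusted p = 5.66e-05), NUP214 from -0.38 to -0.52 (8.31e-05), NUP93 from -0.36 to -0.41 (8.31e-05) and NUP98 from -0.19 to -0.27 (0.00221), so in these 4 the fall was larger with the offset than without it. Their exonic GC content, taken over all annotated exons, was 42.46% to 46.55%, a range where the offset itself lowers the log2 fold change. The coding sequence had 45.18% GC in KPNA2, 51.85% in NUP214, 51.44% in NUP93 and 47.56% in NUP98. No fit used the GC content of the coding sequence, so whether the falls would also be larger with that measure was not tested. RANGAP1 had -0.33, NXF1 -0.34, XPO6 -0.29, NXT1 -0.28, NUP188 -0.25 and IPO4 -0.24. RAN, not called without the offset, had -0.27 (adjusted p = 0.01003), and NUP37 had -0.35 (0.0115). The members that lost their call were SEC13, POM121, POM121C, AAAS, TNPO2, NUP62 and IPO13. RANGAP1, NXF1, IPO4, NXT1, NUP214, XPO6, NUP188, NUP93 and KPNA2 were called lower in all 16 alternative fits, with a largest adjusted p of 0.0359.

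**Figure D4:**
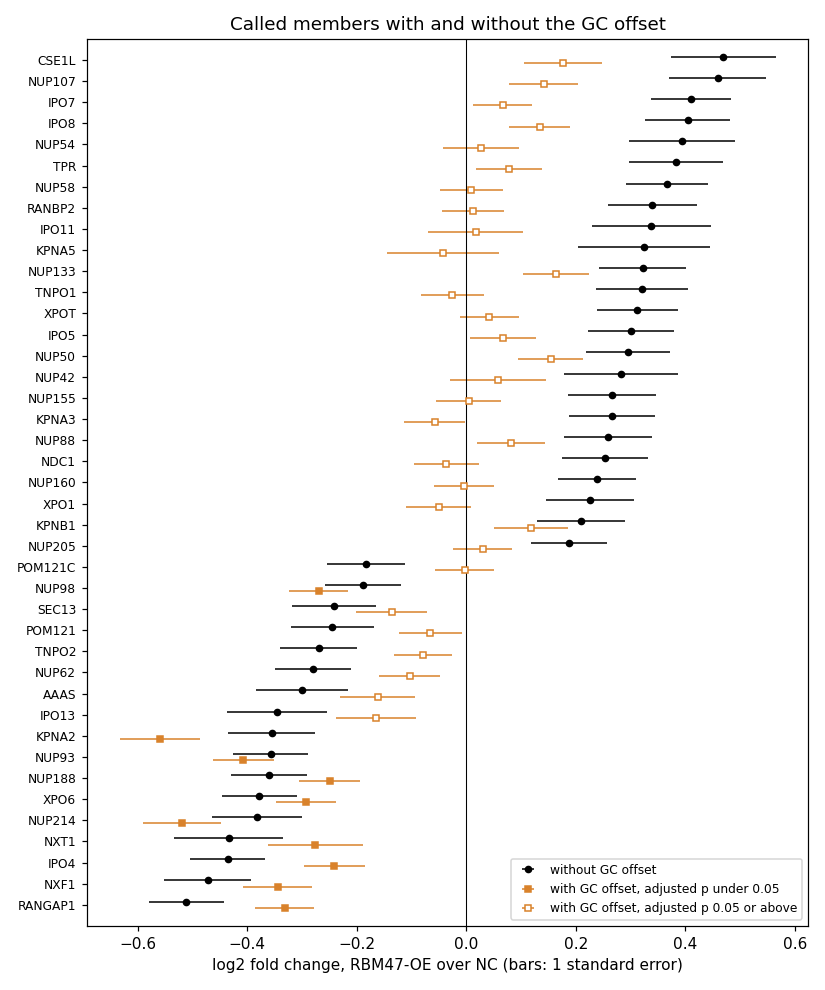
Log2 fold change (RBM47-OE over NC) of the 41 called members without the GC offset (black circles) and with it (orange squares, filled where the adjusted p is under 0.05), with bars of 1 standard error. The squares of the members called higher gather between -0.06 and 0.18, and 10 of those called lower stay filled.

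Related genes outside the symbol rule, 50 in 4 lists, gave 9 called higher, 20 lower and 21 neither, with a median log2 fold change of -0.13, and 2 higher and 12 lower with the GC offset. Over all tested genes 19.1% were called higher and 16.9% lower, and 6.01% and 8.46% with the GC offset. The related genes called higher were thus not above the share of all genes. Those called lower were above it, with 20 of 50 against 16.9%, and 12 of 50 against 8.46% with the GC offset. The lists were not matched to all genes for depth. AGFG1, HIKESHI, ENY2 and SEM1 were called lower only with the offset, so the 12 are not all among the 20. Of 4 pore proteins with other names, AHCTF1, which seeds pores on chromatin, rose by 0.33 (edgeR adjusted p = 0.00558) and RAE1, an mRNA export factor bound to NUP98, fell by 0.45 (8.58e-05). Of 10 Ran regulators and transport adaptors, 1 was called higher and 5 lower: PHAX, the adaptor for small nuclear RNA export, rose by 0.45 (0.00105), and the largest fall was -0.42 in NUTF2, which carries RAN back into the nucleus (0.000104).

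Of 19 genes of the mRNA export complexes, 3 were called higher and 8 lower. THOC2, the scaffold of the THO complex, rose by 0.60 (edgeR adjusted p = 5.9e-05) and was the only one of the 50 at the study's thresholds, and DDX39A, a helicase of the same pathway, fell by 0.50 (3.2e-05). Of 17 genes of the lamina and envelope, 4 were called higher and 6 lower, with SYNE2, a linker to the cytoskeleton, at 0.40 (0.00059) and BANF1, which binds DNA at the envelope, at -0.40 (0.000371). With the GC offset THOC2 was at 0.25 (adjusted p = 0.0122) and SYNE2 at 0.21 (0.0255), the 2 related genes still called higher.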

How the data were processed

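The libraries were poly(A) RNA made with a strand-marking kit and sequenced as paired reads. The authors removed reads with more than 2 ambiguous bases, used FASTX-Toolkit for trimming, aligned with HISAT2 against GRCh38 and kept unique alignments for counting. The authors deposited raw counts per gene and FPKM values made from the same alignments, 1 column per library. The counting tool, its strand setting and the annotation release are not given in the sources used here. The labels and the study's methods differ on the plasmid vector, the library kit and the culture medium.

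The counts were tested with edgeR 4.0.16 in R 4.3.3 (filterByExpr with a minimum count of 10 and a minimum total of 15, TMM normalization, a quasi-likelihood test on condition alone, Benjamini-Hochberg over all 16260 genes tested), and the script was tested on simulated data. A standard error is the absolute log2 fold change over the root of the F statistic. GC content, lengths and coordinates came from GENCODE 44 with GRCh38 by gene identifier, and 43 of 57 members had the same gene version there. Sharing was counted as exact 100-base stretches. Offsets for GC content and length were fitted per library by loess with a span of 0.3.

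The members, roles and lists were chosen with earlier results of these data known. Values in every library were given for the 8 largest called changes without overlap in each direction and for RAN, RANGAP1, KPNB1, KPNA2, XPO1, CSE1L, NXF1, RANBP2, TPR, NUP62, NUP98 and NUP107, and of each related list the largest change in each direction. RGPD5, RGPD8 and ATF5 were named for the bases they share with members. Alternatives were DESeq2 1.42.0, RLE factors, library totals, no filter, the replicate number as a block, the GC offset with and without that block, the length offset, limma 3.58.1 on log2(FPKM + 1) or log2(FPKM + 0.1) where the mean FPKM reached 0.1, and each library left out in turn. A marker of the cell type lists is not reported here.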

Additional observations from a re-analysis of the deposited data

How the results depend on the processing

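The number of members called higher, 24, was 0 with the GC offset, 0 with the GC offset and replicate block, 13 with the length offset and 14 to 26 when 1 library was left out, and 22 to 27 under the other alternatives. The median log2 fold change of the members reversed from 0.139 to -0.045 with the GC offset and to -0.044 with the GC offset and replicate block, and was 0.091 without RBM47-OE 3. XPO1 reversed to -0.050 and -0.053 in the same fits. The number of members called lower was 12 to 20 throughout. At the study's thresholds 0 to 1 members were called when 1 library was left out. Of the related genes, 2 were called higher with the GC offset and 2 with the GC offset and replicate block, against 9, and 12 and 13 lower, against 20. Leaving out 1 library gave 13 to 23 lower, with 13 without NC 2. The cause of these changes was not tested. Same-numbered libraries did not deviate together (correlations of -0.06, -0.015 and -0.016), and the replicate block gave 22 members higher and 15 lower. Of 352 values (22 genes under 16 alternatives), 300 kept their direction and side of the threshold, 47 lost the call, 3 gained it (all RAN) and 2 reversed. Scaling by library totals raised the median of all genes by 0.0623 and gave 27 members higher and 13 lower. The 3 libraries in each group limit the precision.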
